A study of Rattus norvegicus with 16 samples.

Results

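The 10 genes described here belong to natural killer cells and cytotoxic T cells. They are the granule proteases Gzma, Gzmb and Gzmk, the granule proteins Prf1 and Nkg7, the receptors Klrd1, Klri2 and Ncr1, and the transcription factors Eomes and Tbx21. A gene was used where a probe set was annotated to its symbol and to no other symbol, and of several such probe sets the brightest would have been kept. Of the 10 genes, 9 were measured, each by 1 probe set, among 14506 genes in all. The one probe set naming Eomes also names Golga4, so Eomes has no value here.

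Natural killer cells and cytotoxic T cells kill infected or altered cells by releasing granules onto them. Perforin opens the membrane of the target cell, granzymes enter and cleave proteins inside it, and paired receptors on the killer cell surface decide whether the granules are released. The transcription factors T-bet and eomesodermin set up this programme as the cells mature. In the lung these lymphocytes sit in the vessels and in the tissue around them, and they are studied in pulmonary hypertension, in which the lung arteries thicken.

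Male Sprague-Dawley rats, 16 in all, each gave RNA from the right lung for 1 Affymetrix array, and 4 rats made up each of 4 groups. The first group lived in hypoxia with estradiol and fulvestrant, the second in hypoxia with estradiol, the third in hypoxia alone, and the fourth in normoxia. Hypoxia meant 2 weeks in a chamber at 362 mmHg, which equals 10% oxygen at sea level. Estradiol was delivered at 75 µg/kg/day over 3 weeks by an implanted pump that was in place before the hypoxia, and fulvestrant, which blocks the estrogen receptors, was given under the skin each day at 3 mg/kg/day. All rats were males of an outbred stock, the labels give no age, and they do not say whether the rats of the other 2 groups received pumps without drug. Saline had been run through the lung vessels to clear them of blood. In whole lung, fewer killer cells and less RNA per killer cell cannot be told apart. Values are on the log2 scale of RMA, on which 1 unit is a factor of 2. They are set between groups for 1 gene at a time, since probe sets differ in brightness.

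Sftpc, the surfactant protein of alveolar type 2 cells, lay between 13.83 and 13.99 on all 16 arrays, near the highest value measured, 14.28. None of 12 lung tissue markers was called between hypoxia and normoxia. Their differences between these groups ran from -0.11 to 0.37. The arrays of the 2 groups did not overlap for 2 of the 12, against 12.1% of all genes. On the first principal component, with 22.1% of the variance, the normoxia arrays lay at -20.8 to -12.0, against -2.05 to 16.3 for the other 12. Estradiol replicates 2 and 3 stood apart from the other 14 arrays on the second component (17.4% of the variance), at -25.4 and -22.3 against -5.18 to 7.85. Normoxia replicate 4 is titled normoxia but has hypoxia in its treatment field. It was kept as normoxia. It lay above every hypoxia array for 9 of 9 genes, by 0.321 to 0.968, and inside the range of the other normoxia arrays for 9 of 9. These genes were chosen with earlier results of the same data known, so their values cannot decide which label is right. On the first component, which uses all genes, the array lay at -19.7. The labels give no batch, and the submission order follows the groups, so a batch and a group cannot be told apart. The labels call the rats separate animals, and p-values measure the spread between them.

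The promoters of 4 granule genes are shown because these genes fell together in hypoxia, and because Gzma and Gzmk are neighbours on chromosome 2 with 0 protein-coding genes between them. Each runs 5′ to 3′ on the strand of the gene, from 250 bases before the annotated start to 50 after it (RefSeq, GRCr8). Capitals mark matches, on either strand, to 3 motifs that factors of killer cells are known to bind, the T-box motif GGTGTGA, the Runx motif TGTGGT and the STAT5 motif TTCNNNGAA.
Gzma (chr2:46485647-46485946, minus strand): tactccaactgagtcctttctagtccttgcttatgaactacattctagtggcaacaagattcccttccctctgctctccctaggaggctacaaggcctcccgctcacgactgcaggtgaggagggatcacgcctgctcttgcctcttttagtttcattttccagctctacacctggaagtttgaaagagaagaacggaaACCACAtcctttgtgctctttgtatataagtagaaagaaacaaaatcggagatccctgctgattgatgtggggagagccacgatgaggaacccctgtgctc
Gzmk (chr2:46581966-46582265, minus strand): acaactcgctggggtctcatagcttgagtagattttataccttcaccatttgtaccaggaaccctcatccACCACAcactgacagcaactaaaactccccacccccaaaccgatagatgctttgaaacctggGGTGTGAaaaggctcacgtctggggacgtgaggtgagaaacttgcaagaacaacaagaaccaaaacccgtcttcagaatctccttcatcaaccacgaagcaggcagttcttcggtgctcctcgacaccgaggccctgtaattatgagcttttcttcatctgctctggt
Gzmb (chr15:34462420-34462719, minus strand): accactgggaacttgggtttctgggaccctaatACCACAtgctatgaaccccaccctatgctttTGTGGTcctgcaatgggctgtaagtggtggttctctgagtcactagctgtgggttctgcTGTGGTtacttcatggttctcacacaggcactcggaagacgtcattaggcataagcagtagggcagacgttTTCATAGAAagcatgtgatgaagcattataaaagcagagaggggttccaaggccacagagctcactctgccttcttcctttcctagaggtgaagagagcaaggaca
Prf1 (chr20:29788790-29789089, plus strand): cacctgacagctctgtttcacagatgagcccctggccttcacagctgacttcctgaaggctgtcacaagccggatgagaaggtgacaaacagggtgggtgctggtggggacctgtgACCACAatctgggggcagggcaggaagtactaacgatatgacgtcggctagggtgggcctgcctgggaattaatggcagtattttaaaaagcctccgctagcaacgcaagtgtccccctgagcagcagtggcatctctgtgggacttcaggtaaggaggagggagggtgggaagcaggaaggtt

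The table of promoters has entries for 7 of the 9 measured genes, all but Klrd1 and Ncr1. The Runx motif occurred in 6 of the 7 promoters, against 17.3% of all 33469 promoters. It began at -51 in Gzma, at -180 in Gzmk, at -134 in Prf1 and at -217, -186 and -127 in Gzmb, with the annotated start counted as 1 and the base before it as -1. The T-box motif occurred in 1 of the 7, in Gzmk at -118, against 3.83% of all promoters. The STAT5 motif occurred in 3 of the 7, in Gzmb, Nkg7 and Klri2, against 8.87% of all promoters. No matches to different motifs overlapped one another in these 7 promoters, and the Tbx21 promoter held none of the 3. A match shows that the letters are present and does not show that a factor binds there.

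Hypoxia against normoxia addressed what 2 weeks of low oxygen did to these genes. All 9 had lower means in hypoxia, and 8 of 9 fell with an adjusted p under 0.05 in limma's moderated test, adjusted over all 14506 genes with Benjamini-Hochberg. Of all genes, 2.43% were called lower. The median log2 difference over the 9 genes was -0.98, against 0.03 over all genes. The 4 hypoxia arrays lay below the 4 normoxia arrays for 9 of 9 genes, and 5.33% of all genes had such a separation downwards. Tbx21 was the gene that missed the threshold. All 9 genes were brighter than the dimmest 20% of genes, so a filter on dim genes removed none of them.

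Gzma, a tryptase-like protease that is among the most abundant granule proteins, fell furthest. Its values were 7.87, 8.45, 8.64 and 8.63 in hypoxia, against 9.83, 9.89, 9.56 and 9.61 in normoxia. The brightest hypoxia array stood well under the dimmest normoxia array, and hypoxia replicate 1 was the lowest of all. The difference was -1.32 (95% interval -1.72 to -0.93), a 2.51-fold lower signal in hypoxia (limma adjusted p = 0.00054).

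Gzmk, the neighbouring tryptase-like protease, measured 8.07, 8.61, 8.61 and 8.81 in hypoxia and 9.96, 9.69, 9.15 and 9.74 in normoxia. The groups did not overlap, but normoxia replicate 3 came close to the hypoxia arrays. The difference was -1.11 (95% interval -1.60 to -0.62), 2.16-fold lower in hypoxia (limma adjusted p = 0.00978). Gzmb, the protease that cleaves caspases in the target cell, measured 8.85, 9.19, 8.99 and 9.02 in hypoxia and 10.14, 9.66, 9.51 and 9.60 in normoxia. Its difference was smaller, at -0.72 (95% interval -1.03 to -0.40), 1.64-fold lower in hypoxia (limma adjusted p = 0.00861). The granzymes belong to families of related proteases, and whether their probes also bind RNA of close relatives was not tested.

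Prf1, which encodes the pore-forming perforin, had 9.19, 9.51, 9.61 and 9.56 in hypoxia, against 10.52, 10.70, 10.12 and 10.45 in normoxia. Every hypoxia array was below every normoxia array. The signal was 1.97-fold lower in hypoxia, with a log2 difference of -0.98 (95% interval -1.30 to -0.66; limma adjusted p = 0.00103). Nkg7, a protein of the granule membrane needed for efficient release, had 10.51, 10.64, 10.44 and 10.81 in hypoxia, against 11.74, 11.57, 11.14 and 11.41 in normoxia. Here too the groups were apart, and the log2 difference was -0.87 (95% interval -1.21 to -0.52; limma adjusted p = 0.00491).

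The receptors fell as well. Klri2, a lectin-like receptor of rodent natural killer cells, measured 6.64, 6.64, 6.45 and 7.20 in hypoxia and 7.77, 8.31, 8.01 and 7.92 in normoxia. Hypoxia replicate 4 was the highest of its group and still below normoxia. The difference was -1.27 (95% interval -1.71 to -0.83), 2.41-fold lower in hypoxia (limma adjusted p = 0.0016).

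Klrd1 encodes CD94, the shared chain of the CD94/NKG2 receptors. It measured 7.10, 6.94, 7.35 and 7.47 in hypoxia and 8.29, 8.48, 7.97 and 8.30 in normoxia, a difference of -1.04 (95% interval -1.36 to -0.73; limma adjusted p = 0.000582). Ncr1 encodes the activating receptor NKp46, a marker of natural killer cells that most T cells lack. It measured 7.21, 7.37, 7.34 and 7.02 in hypoxia and 7.90, 7.99, 7.57 and 7.96 in normoxia. The Ncr1 difference was -0.62 (95% interval -0.88 to -0.35; limma adjusted p = 0.00767), the smallest of the 8 that passed.

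Tbx21 encodes T-bet. Its hypoxia values lay close together at 8.11, 8.10, 8.21 and 8.16, against 8.95, 8.72, 8.38 and 8.53 in normoxia. The groups did not overlap. The difference of -0.50 (95% interval -0.81 to -0.19), the smallest of the 9, had a limma adjusted p of 0.0572. The fit pools the spread of all 4 groups, and the Tbx21 SD was 0.05 in hypoxia, 0.25 in normoxia and 0.33 in hypoxia with estradiol. Without normoxia replicate 3, the lowest normoxia array for 8 of the 9 genes, Tbx21 passed and 9 of 9 genes were called. It also passed with each array centred on its median, with quantile normalization, with the dim genes left out, with array weights and with only these groups in the fit. It did not pass with the mean of a gene's probe sets, with all probe sets tested or with an intensity trend. With 1 of the 8 hypoxia and normoxia arrays left out, Tbx21 passed in 1 of 8 fits. Its difference in those fits ran from -0.59 to -0.40, and its limma adjusted p from 0.033 to 0.183. On leaving out any 1 of these 8 arrays, all 8 calls were kept. They were not kept with normoxia replicate 4 counted as hypoxia, as its treatment field says: 0 of 9 genes were then called, and 40 genes in all against 817. The differences of the 9 genes then ran from -1.12 to -0.44, with a median of -0.79 against -0.98.

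**Figure D1:**
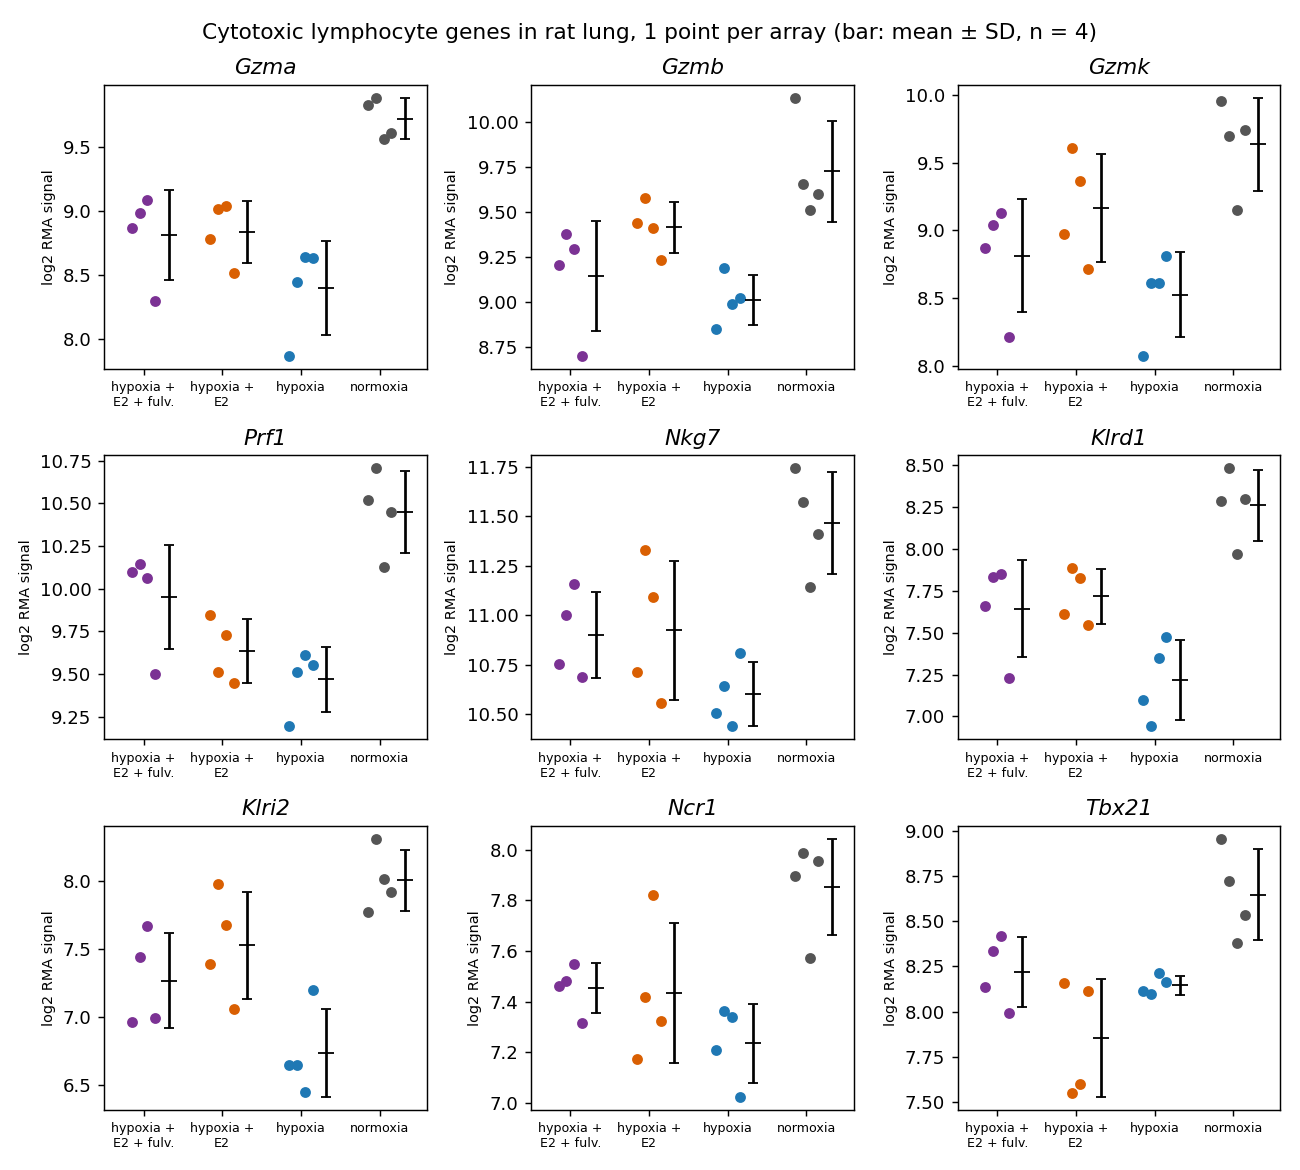
Log2 RMA signal of the 9 measured genes (vertical axes, a scale of its own in each panel) by group, 1 point per array, with the mean ± SD (n = 4) beside the points. For every gene the 4 normoxia arrays, at the right of each panel, lie above the 4 hypoxia arrays.

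With estradiol during hypoxia, 8 of 9 genes had means between those of hypoxia and normoxia, and Tbx21 had its lowest mean there. Set against hypoxia alone, 0 of 9 genes were called (limma, Benjamini-Hochberg), while 0.772% of all genes, 112 in number, were called in either direction. That 112 rested on single arrays: 3 to 7 genes were called without hypoxia replicate 1, 2 or 4 or estradiol replicate 2 or 3, and 219 and 355 without estradiol replicates 1 and 4. At an unadjusted p under 0.05 there were 5 of 9, against 16.1% of all genes. Of the 9 differences 8 were positive, with a median of 0.41 against -0.02 over all genes. The comparison of hypoxia with normoxia uses the same hypoxia arrays.

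Klri2 had the largest difference between the 2 groups. Its values were 7.39, 7.98, 7.68 and 7.06 in hypoxia with estradiol, against 6.64, 6.64, 6.45 and 7.20 in hypoxia. Estradiol replicate 4 lay below the highest hypoxia array, and the other 3 lay above all hypoxia arrays. The difference was 0.79 (95% interval 0.35 to 1.23; limma adjusted p = 0.0808), and without estradiol replicate 4 it was 0.95 and Klri2 was called. Gzmk, at 8.97, 9.61, 9.37 and 8.71 in hypoxia with estradiol against 8.07, 8.61, 8.61 and 8.81 in hypoxia, had a difference of 0.64 (95% interval 0.15 to 1.13; limma adjusted p = 0.205).

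Gzmb and Klrd1 were the 2 genes whose arrays did not overlap between hypoxia with estradiol and hypoxia, and 3.19% of all genes separated upwards in that way. Gzmb measured 9.44, 9.58, 9.41 and 9.23 in hypoxia with estradiol, just above the 8.85, 9.19, 8.99 and 9.02 in hypoxia. Its difference was 0.41 (95% interval 0.09 to 0.72; limma adjusted p = 0.204). Klrd1 measured 7.61, 7.88, 7.83 and 7.55 in hypoxia with estradiol, against 7.10, 6.94, 7.35 and 7.47 in hypoxia, and its difference was 0.50 (95% interval 0.19 to 0.81; limma adjusted p = 0.121).

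Gzma differed by 0.44 (95% interval 0.05 to 0.83), Nkg7 by 0.32 (-0.02 to 0.67), Ncr1 by 0.20 (-0.06 to 0.47) and Prf1 by 0.17 (-0.15 to 0.49). Without hypoxia replicate 1 Gzma differed by 0.26 and Prf1 by 0.07, and Prf1 by 0.09 without estradiol replicate 1. Nkg7 differed by 0.19 without estradiol replicate 2, and Ncr1 by 0.07 without estradiol replicate 3 and 0.13 without hypoxia replicate 4. For Prf1 the 9.85, 9.51, 9.73 and 9.45 in hypoxia with estradiol were interleaved with the 9.19, 9.51, 9.61 and 9.56 in hypoxia. Tbx21 went the other way, by -0.29 (-0.60 to 0.02). Its arrays in hypoxia with estradiol fell into pairs, at 8.16, 7.55, 7.60 and 8.11, against 8.11, 8.10, 8.21 and 8.16 in hypoxia. The low pair were estradiol replicates 2 and 3, the arrays that stand apart on the second component. Without these 2 arrays the Tbx21 difference was -0.01, Klri2 differed by 0.49 and Gzmk by 0.32, the median over the 9 genes was 0.25 and 0 genes were called.

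Hypoxia with estradiol was also set against normoxia. Here 4 of 9 genes fell, Gzma, Prf1, Klrd1 and Tbx21, while 2.34% of all genes were called lower. The same 4 genes were those whose arrays did not overlap, and 4.18% of all genes separated downwards. The median difference over the 9 genes was -0.54, against 0.00043 over all genes.

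Tbx21 fell to 7.86 ± 0.33 in hypoxia with estradiol, against 8.65 ± 0.25 in normoxia (SD, n = 4 each), 1.73-fold lower (limma adjusted p = 0.00616). The Tbx21 call was lost with only these groups in the fit, and without estradiol replicates 2 and 3, where the difference was -0.51 against -0.79 with them. Prf1 fell by 0.81 (95% interval -1.13 to -0.49; limma adjusted p = 0.00616) and Gzma by 0.89 (-1.28 to -0.49; limma adjusted p = 0.0121). Klrd1 was -0.54 (-0.86 to -0.23; limma adjusted p = 0.0444), just inside the threshold, and its call was lost on leaving out any of estradiol replicates 1 to 4 or normoxia replicates 1, 2 or 4. Nkg7 (-0.54) and Ncr1 (-0.42) had limma adjusted p values of 0.0693 and 0.0674, and both were called without normoxia replicate 3. Nkg7 was also called without estradiol replicate 2, and Ncr1 without estradiol replicate 3. Gzmb (-0.31), Gzmk (-0.47) and Klri2 (-0.48) were further from it, at 0.287, 0.31 and 0.228. With estradiol replicates 2 and 3 both left out 4 genes were called again, Gzma, Prf1, Nkg7 and Ncr1. With normoxia replicate 4 counted as hypoxia, 1 gene was called, Tbx21.

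Fulvestrant was given on top of estradiol, and the comparison with estradiol alone asks what blocking the estrogen receptors changed. Of the 9 genes 0 were called (limma, Benjamini-Hochberg), 1 had an unadjusted p under 0.05 against 14.8% of all genes, and 0.0483% of all genes were called in either direction. Those 7 genes became 331 without estradiol replicate 4 and 0 to 3 without estradiol replicate 1 or 3 or fulvestrant replicate 1, 2 or 3. The median difference over the 9 genes was -0.03, with 3 differences above 0 and 6 below.

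The unadjusted p under 0.05 belonged to Tbx21, at 8.14, 8.33, 8.42 and 7.99 in hypoxia with estradiol and fulvestrant, against 8.16, 7.55, 7.60 and 8.11 in hypoxia with estradiol. The 2 upper estradiol arrays lay among the fulvestrant arrays, and the difference was 0.36 (95% interval 0.05 to 0.68; limma adjusted p = 0.255), or 0.08 without estradiol replicates 2 and 3. Prf1 measured 10.10, 10.15, 10.06 and 9.50 in hypoxia with estradiol and fulvestrant, against 9.85, 9.51, 9.73 and 9.45 in hypoxia with estradiol. Of the fulvestrant arrays 3 were above every estradiol array and replicate 4 was not, for a difference of 0.32 (95% interval -0.0024 to 0.64; limma adjusted p = 0.342).

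Gzmb (-0.27, 95% interval -0.59 to 0.04), Gzmk (-0.35, -0.85 to 0.14) and Klri2 (-0.26, -0.70 to 0.18) lay lower with fulvestrant, each within its interval of 0. Without fulvestrant replicate 4 these were -0.12, -0.15 and -0.17, and without estradiol replicate 2 Gzmk was -0.21 and Klri2 -0.11. Klri2 was also -0.16 without fulvestrant replicate 1 and -0.41 without estradiol replicate 4. Fulvestrant replicate 4 was the lowest of its group for Gzmb and Gzmk, at 8.70 and 8.21. Klri2 had its lowest value in fulvestrant replicate 1, at 6.96, next to 6.99 in replicate 4. Gzma (-0.03), Nkg7 (-0.02), Klrd1 (-0.07) and Ncr1 (0.02) had differences close to 0. Their 95% intervals reached from -0.42 to 0.37 for Gzma, from -0.37 to 0.32 for Nkg7, from -0.39 to 0.24 for Klrd1 and from -0.25 to 0.28 for Ncr1.

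Hypoxia with estradiol and fulvestrant was set against normoxia in the same way. Of the 9 genes 3 fell, Gzma, Gzmb and Klrd1, while 0.993% of all genes were called lower. The arrays of 6 genes did not overlap, Gzma, Gzmb, Gzmk, Klrd1, Klri2 and Ncr1, against 5.20% of all genes separating downwards. The median difference was -0.58.

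Gzma had 8.87, 8.98, 9.09 and 8.30 in hypoxia with estradiol and fulvestrant, well under the 9.83, 9.89, 9.56 and 9.61 in normoxia. The difference was -0.91 (95% interval -1.30 to -0.52; limma adjusted p = 0.0114). Klrd1 (-0.62, limma adjusted p = 0.0336) and Gzmb (-0.58, limma adjusted p = 0.0434) were closer to the threshold. Both calls were lost without normoxia replicate 1, 2 or 4 or fulvestrant replicate 1 or 4, which left 1 gene called, and the Gzmb call was lost without fulvestrant replicate 3. Without normoxia replicate 3, Gzmk, Prf1, Nkg7 and Ncr1 passed as well and 7 genes were called. Klri2 (-0.74), Gzmk (-0.82) and Nkg7 (-0.57) had limma adjusted p values of 0.0714, 0.0747 and 0.0806. With normoxia replicate 4 counted as hypoxia 0 genes were called.

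The comparison of fulvestrant and estradiol with hypoxia alone called 0% of all genes and 0 of the 9 (limma, Benjamini-Hochberg). All 9 differences were positive, from 0.07 for Tbx21 to 0.53 for Klri2, with a median of 0.30 against -0.02 over all genes. The same hypoxia arrays enter the comparison with normoxia. That median was 0.21 without fulvestrant replicate 3, 0.24 without hypoxia replicate 1 and 0.49 without fulvestrant replicate 4. With normoxia replicate 4 counted as hypoxia it was 0.14. At an unadjusted p under 0.05 there were 4 of 9, Gzma, Prf1, Klrd1 and Klri2, against 6.96% of all genes. Prf1 had the smallest unadjusted p, with a difference of 0.48 (95% interval 0.16 to 0.80).

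**Figure D2:**
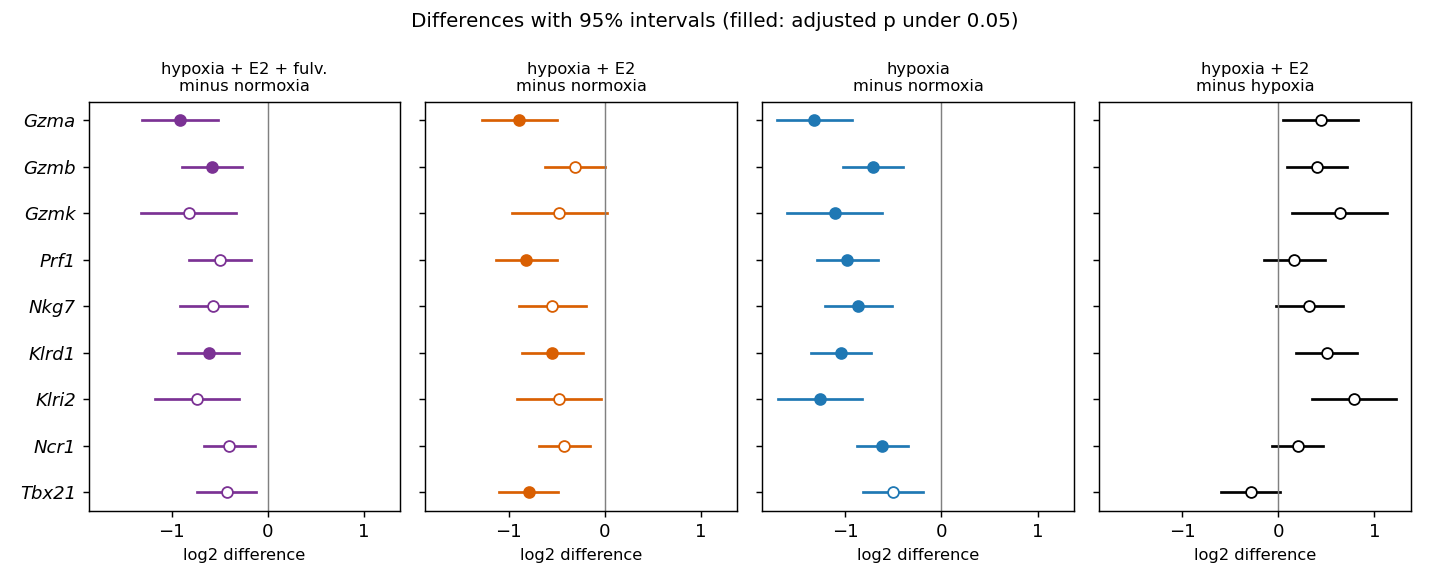
Log2 difference (horizontal axis) of each gene in 4 comparisons, with 95% intervals from limma and filled points where the adjusted p was under 0.05. All 9 points lie left of 0 in the 3 comparisons with normoxia, with 3, 4 and 8 of them filled, and 8 of 9 lie right of 0 for hypoxia with estradiol minus hypoxia, with none filled.

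Ordered by group mean, normoxia was highest for 9 of 9 genes and hypoxia lowest for 8 of 9. Tbx21 was lowest in hypoxia with estradiol. The group next below normoxia was hypoxia with estradiol for 6 genes and hypoxia with estradiol and fulvestrant for Prf1, Ncr1 and Tbx21. That group differed from normoxia past the threshold for Gzma and Klrd1, and not for the other 7 genes. Among the 3 hypoxic groups no pair of neighbours was called for any gene. The SD within a group ranged over the 9 genes from 0.05 to 0.36 in hypoxia, compared with 0.14 to 0.40 with estradiol, 0.10 to 0.42 with estradiol and fulvestrant, and 0.16 to 0.34 in normoxia.

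The genes also moved together from rat to rat inside a group. Fulvestrant replicate 4 was the lowest of its group for 8 of 9 genes, estradiol replicate 4 for 7, and normoxia replicate 3 for 8. Fulvestrant replicate 3 was the highest of its group for 7. The low arrays were not low for these genes alone. Averaged over the T cell markers described below, the same arrays were the lowest of their groups, at -0.25, -0.38 and -0.25 from the normoxia mean. Normoxia replicate 3 and estradiol replicate 4 were also the lowest for the pan-leukocyte and neutrophil lists. For the neutrophil list estradiol replicate 4 was close to replicate 1, at 0.329 against 0.343. Fulvestrant replicate 4 came next to the lowest by small gaps. It lay at -0.056 against -0.059 in replicate 3 for the pan-leukocyte list, and at -0.062 against -0.066 in replicate 1 for the neutrophil list. After each group's mean was taken off, the 36 pairs of genes had Pearson correlations from -0.217 to 0.888 over the 16 arrays, with a median of 0.518 and 33 of 36 above 0. The arrays share their normalization, and pairs of genes share arrays, so these are descriptions.

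The neighbours Gzma and Gzmk had the highest of these correlations, 0.888. Gzmk and Nkg7 reached 0.861, though Nkg7 is on chromosome 1, and Gzmb and Gzmk 0.814, on chromosomes 15 and 2. Klrd1 and Klri2, on chromosome 4 with 5 protein-coding genes between them, reached 0.643. Tbx21 stood aside, with a median of 0.124 against the other 8 genes and values of -0.217 with Klri2 and -0.123 with Ncr1. In hypoxia with estradiol, replicates 2 and 3 were the lowest for Tbx21, at 7.55 and 7.60, and the highest for Gzma, at 9.01 and 9.04. With fulvestrant added, replicate 3 was the highest and replicate 4 the lowest for both genes. Correlations without estradiol replicates 2 and 3 were not computed. The closest partner of Tbx21 was Prf1, at 0.486.

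**Figure D3:**
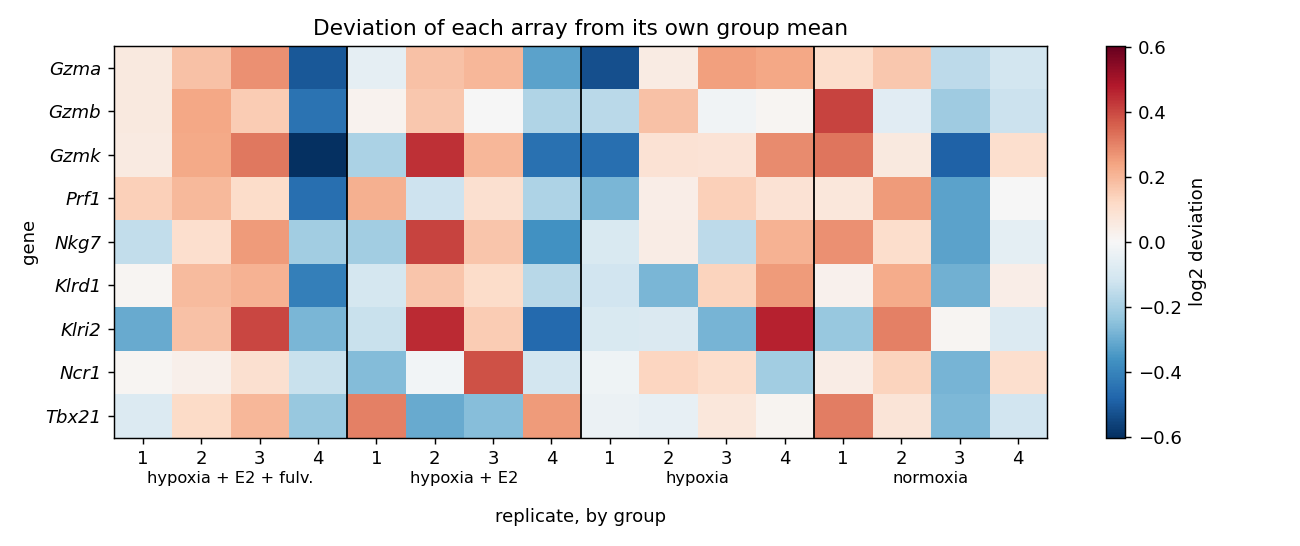
Log2 deviation (colour) of each array (columns, by group and replicate) from its own group mean, for the 9 genes (rows). Fulvestrant replicate 4, estradiol replicate 4 and normoxia replicate 3 are blue for most genes, and Tbx21 departs from the other rows in the estradiol group.

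Genes outside the list were ranked by how closely their deviations from group means followed the mean deviation of the 9 genes over the 16 arrays. The 10 closest were Klrc1 (Pearson r = 0.906), Il12rb2 (0.89), Ccl5 (0.887), LOC100361261 (0.866), Il2rb (0.866), Uvrag (0.853), Klrb1c (0.849), Cd8b (0.848), Gzmm (0.834) and Uckl1 (0.815). The 99th percentile over 14497 genes was 0.607 and the median -0.03. Klrc1 encodes NKG2A, the partner chain of CD94, Il2rb the shared receptor chain for interleukins 2 and 15, and Ccl5 a chemokine stored by cytotoxic cells. With group means left in, Il2rb (0.96), Klrc1 (0.951), Klrb1a (0.947), Klri1 (0.94) and Stat4 (0.938) came first, against a 99th percentile of 0.749. Txk (0.934), Gzmm (0.923), Uvrag (0.915), Klrb1c (0.911) and Cd8a (0.909), which was placed on the list of T cell markers, came next.

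Other genes of killer cells were read from lists, and each count stands beside the 2.43% of all genes called lower and the 3.21% called higher in hypoxia against normoxia. Of 26 measured receptors and adaptors of killer cells, 10 fell and 0 rose, with a median difference of -0.34. Klrb1c, a receptor of the NKR-P1 family, fell to 7.86 ± 0.21 in hypoxia, against 8.86 ± 0.35 in normoxia (limma adjusted p = 0.000787). Klrb1a of the same family fell by 0.95, Sh2d1a, the adaptor SAP, by 0.92, and Klri1, the inhibitory relative of Klri2, by 0.90, with limma adjusted p values of 0.000916, 0.00143 and 0.00139. Without hypoxia replicate 1 the list had 6 calls. With estradiol against hypoxia 0 of the 26 were called (limma), against 0.772% of all genes in either direction. At an unadjusted p under 0.05 there were 7 of the 26, against 16.1% of all genes, and the median was 0.21.

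Of 25 other granule and effector genes, 3 fell and 0 rose in hypoxia against normoxia, with a median of -0.11. Gzmm, another granzyme, fell by 0.80 (limma adjusted p = 0.0106), Il2rb by 0.80 (0.00125) and Ccl5 by 0.62 (0.0245). The Ccl5 call was lost without normoxia replicate 1, 2 or 4 or hypoxia replicate 1 or 2. Ifng, the cytokine interferon gamma, was dim in both groups at 5.36 in hypoxia and 5.47 in normoxia (limma adjusted p = 0.516). Ifng was chosen after its values were seen.

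Among 16 killer cell cytokines and receptors 4 fell and 0 rose. Stat4, which carries the interleukin 12 signal, fell by 0.82 (limma adjusted p = 0.00187) and Il12rb2, a chain of the interleukin 12 receptor, by 0.81 (0.0107). Il15, which natural killer cells need to survive, measured 8.62 ± 0.09 in hypoxia and 9.22 ± 0.30 in normoxia (limma adjusted p = 0.00466). Il18r1, the interleukin 18 receptor, fell by 0.42 (0.0347), which did not hold on leaving out normoxia replicate 1, 3 or 4 or hypoxia replicate 1 or 3. It was also 0.53 higher in hypoxia with estradiol than in hypoxia (limma adjusted p = 0.0362). This second call was lost without any 1 of the 4 hypoxia arrays, and without estradiol replicate 2 or 3.

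Of 11 other transcription factors 2 fell and 1 rose in hypoxia against normoxia. Ikzf3, a factor of lymphocytes, fell by 0.69 (limma adjusted p = 0.0101) and Prdm1, which encodes Blimp-1, by 0.42 (0.00851). Bhlhe40, a factor known to respond to low oxygen, rose by 0.83 (limma adjusted p = 0.0486), a call that none of the 8 fits with 1 array left out kept.

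Of 20 chemokines and receptors for homing and exit, 4 fell and 3 rose, against 2.43% and 3.21% of all genes. S1pr5, the receptor that natural killer cells use to leave bone marrow and lymph nodes, fell to 8.69 ± 0.10 in hypoxia, against 9.63 ± 0.33 in normoxia (limma adjusted p = 0.000298). The chemokines Ccl2, Ccl21 and Cxcl12 rose by 1.48, 1.09 and 0.75 (0.000737, 0.000133 and 0.00182).

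Cx3cr1, the fractalkine receptor of monocytes and mature killer cells, measured 9.99 in both hypoxia and normoxia. It was lower in hypoxia with estradiol, by -0.74 against hypoxia (limma adjusted p = 0.0295), and higher in hypoxia with estradiol and fulvestrant, by 0.72 against hypoxia with estradiol (0.0403). The estradiol arrays enter both of these comparisons. The first call was lost without hypoxia replicate 1, 2 or 4 or estradiol replicate 2 or 3. The second was lost without estradiol replicate 1, 2 or 3 or fulvestrant replicate 1, 2 or 3.

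Markers of other blood cells were read in the same fits, and their part in the result above was not tested. Of 20 T cell markers 11 fell and 0 rose in hypoxia against normoxia, with a median of -0.43. Il7r fell by 0.78 (limma adjusted p = 0.0115), Lck by 0.68 (0.0119), Trat1 by 0.75 (0.0299) and Cd3d by 0.69 (0.0372). The Trat1 call was lost without normoxia replicate 1, 2 or 4 or hypoxia replicate 1 or 2, and the Cd3d call without normoxia replicate 1, 2 or 4 or hypoxia replicate 1, 3 or 4. The list had 7 calls without normoxia replicate 1, normoxia replicate 4 or hypoxia replicate 1. With normoxia replicate 4 counted as hypoxia, the lists of T cell markers, killer cell receptors and granule genes each had 0 calls. Il7r was 0.90 higher in hypoxia with estradiol than in hypoxia (limma adjusted p = 0.0362), and this call was lost without hypoxia replicate 1, 2 or 3 or estradiol replicate 2 or 3.

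Of 9 B cell markers 2 fell, Cd22 by 0.81 (limma adjusted p = 0.034) and Pou2af1 by 0.51 (0.0214), and 0 rose. Both calls were lost without normoxia replicate 1 or 4 or hypoxia replicate 2, and that of Cd22 also without hypoxia replicate 1. That list had 0 calls without normoxia replicate 1 or 4 or hypoxia replicate 2, 1 call without hypoxia replicate 1, and 5 without normoxia replicate 3. Of 8 genes shared by most leukocytes 2 fell, Coro1a by 0.52 (0.00648) and Ptprc, which encodes CD45, by 0.45 (0.00525). At an unadjusted p under 0.05 (limma), 5 of these 8 were lower and 1 was higher, against 20.4% of all genes. Their differences ran from -0.52 to 0.85, with a median of -0.22. Of 11 monocyte and macrophage markers 3 rose, the complement genes C1qa, C1qb and C1qc, by 0.60, 0.66 and 0.67 (0.00316, 0.000337 and 0.00103), while 3.21% of all genes were called higher.

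Of 10 neutrophil markers 0 were called in hypoxia against normoxia (limma). In that comparison 8 of the 10 differences were negative, with a median of -0.64 and a range of -0.997 to 0.137, and 5, all negative, had an unadjusted p under 0.05, against 20.4% of all genes. In hypoxia with estradiol against hypoxia 8 rose, with a median of 1.55, while 0.772% of all genes were called in either direction. Mmp8, Fcar, S100a8 and Retnlg rose by 1.94, 1.82, 1.74 and 1.73 (limma adjusted p = 0.0362, 0.0362, 0.0295 and 0.0362). All 4 of these calls were lost without hypoxia replicate 2 or estradiol replicate 2 or 3. This list had 0 calls without estradiol replicate 2, estradiol replicate 3 or hypoxia replicate 2, 1 call without hypoxia replicate 1 or 4, and 3 without hypoxia replicate 3. Mrc1, the mannose receptor of macrophages, was 0.49 higher in hypoxia with estradiol than in hypoxia (limma adjusted p = 0.0362) and differed by -0.57 between hypoxia with estradiol and fulvestrant and hypoxia with estradiol (0.0403). The first Mrc1 call was lost without hypoxia replicate 1, 2 or 4 or estradiol replicate 2 or 3, and the second without estradiol replicate 1 or 3 or any 1 of the 4 fulvestrant arrays. Of 7 erythrocyte markers 1 rose in hypoxia against normoxia, Hemgn by 1.27 (limma adjusted p = 0.0431), lost in 7 of 8 fits with 1 array left out, and 6 markers were called without hypoxia replicate 3. All 7 differences were positive, with a median of 1.46 and a range of 0.44 to 1.95, and 6 had an unadjusted p under 0.05. The mean over the list, set against the normoxia mean, was -0.09 on hypoxia replicate 3 and 1.72 to 2.05 on the other 3 hypoxia arrays, against -0.18 to 0.26 in normoxia. Of 7 platelet markers 0 were called (limma; 0 at an unadjusted p under 0.05), with Itgb3 at -0.16 and Nrgn at -0.19.

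Averaged over the list on each array and set against the normoxia mean, the 9 killer cell genes lay at -0.98 to -0.39 with estradiol and fulvestrant, at -0.81 to -0.43 with estradiol, at -1.13 to -0.79 in hypoxia, and at -0.26 to 0.15 in normoxia. Every hypoxic array lay below every normoxia array. The 20 T cell markers lay at -0.25 to 0.08 with estradiol and fulvestrant, at -0.38 to -0.10 with estradiol, at -0.48 to -0.31 in hypoxia, and at -0.25 to 0.24 in normoxia, so hypoxia alone was clear of normoxia. The B cell markers lay at -0.81 to -0.33 in hypoxia, against a wide -0.44 to 0.50 in normoxia, and these groups overlapped. The pan-leukocyte genes lay at -0.27 to 0.06 in hypoxia and -0.12 to 0.11 in normoxia. Their mean takes in genes that differed in opposite directions, from -0.52 to 0.85 in hypoxia against normoxia.

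**Figure D4:**
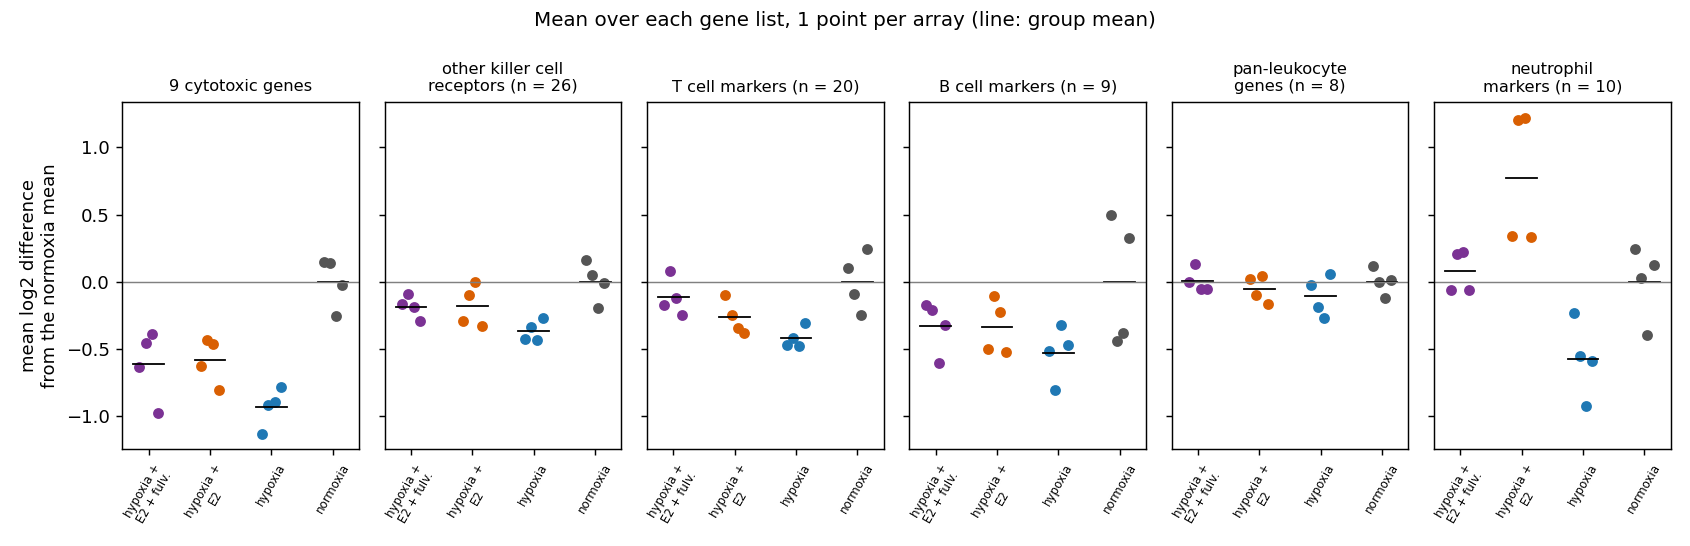
Mean log2 difference from the normoxia mean (vertical axis, the same in every panel) over the 9 cytotoxic genes and 5 other gene lists, 1 point per array, with a line at each group's mean. The cytotoxic genes lie at -0.39 or lower on all 12 hypoxic arrays, while the pan-leukocyte genes lie between -0.27 and 0.13 on them. The pan-leukocyte mean takes in genes that differed in opposite directions.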

How the data were processed

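RNA of 16 rat lungs was measured on Affymetrix gene arrays, 4 arrays for each of 4 groups, which came from the sample titles. The deposited values are log2 signals that the authors made with RMA and Partek, per the submitters' processing notes. Versions, settings and a genome build are not given in the sources used here. RMA corrects background and aligns the arrays (medians 7.69 to 7.77), which hides any change that most genes share and compresses differences of dim probe sets. Arrays carry no count depth, and their number limits the precision.

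Of 29214 probe sets, 15310 named 1 gene in the platform annotation, 323 several and 13581 none. The brightest probe set of a gene was used, for 14506 genes (527 had several). Differences between group means were fitted to all 16 arrays with limma 3.58.1 in R 4.3.3 (lmFit, eBayes, no covariates), with Benjamini-Hochberg adjustment over all genes and a threshold of 0.05, and the script was tested on simulated data. Intervals are at 95%. Correlations are Pearson's and carry no test. Motifs were searched in RefSeq promoters of GRCr8.

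The genes and lists were chosen with earlier results of these data known. From each list the genes past the threshold in 1 of the 3 main comparisons (hypoxia against normoxia, estradiol added, fulvestrant added) are named, at most 4 per list and comparison by size, or else the 2 brightest, beside the 10 most similar genes. Alternatives were median centring, quantile normalization, a filter on the dimmest 20% of genes, the mean of a gene's probe sets, all probe sets, an intensity trend, array weights, fits of 2 groups, normoxia replicate 4 as hypoxia, and each array left out. An alternative without estradiol replicates 2 and 3 was chosen after seeing the data.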

Additional observations from a re-analysis of the deposited data

Results flagged for a closer look

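Each gene named above was examined for an array whose gap to the nearest of its 3 group mates was large against the range of the group. Of 196 groups of 4 arrays examined, over the 9 killer cell genes and 40 other genes, 10 had such an array, and chance alone marks about 1 in 20. In hypoxia with estradiol and fulvestrant, replicate 4 was far below its group for Prf1, at 9.50 against 10.06 or more, and far above it for Il15, at 8.99. In the same group replicate 2 stood high for Lck, at 9.30, and low for C1qa, at 9.67, and replicate 3 stood low for Pou2af1, at 8.20. In hypoxia with estradiol, replicate 4 was high for Cx3cr1, at 9.53, and replicate 2 was high for Retnlg, at 9.84. In hypoxia, replicate 2 was low for Cxcl12, at 11.38. In normoxia, replicate 3 was low for Sh2d1a, at 6.42, and replicate 4 was low for Sftpc, at 13.92.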

How the results depend on the processing

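No paired analysis was possible because replicates were numbered by accession and no label links rats across groups. In hypoxia against normoxia 8 or 9 of the 9 killer cell genes were called under every setting, leave-one-out fits included (8 to 9), except with normoxia replicate 4 counted as hypoxia, which called 0. That relabelling also left 1 gene in hypoxia with estradiol against normoxia (main count 4) and 0 in hypoxia with estradiol and fulvestrant against normoxia (main count 3), and it turned the differences of Prf1 in hypoxia with estradiol against hypoxia to -0.030 and of Tbx21 in the group with both drugs against hypoxia to -0.0030. The comparison of hypoxia with estradiol against normoxia gave 2 calls with only those groups in the fit and 3 to 6 with 1 array left out. The comparison of hypoxia with estradiol and fulvestrant against normoxia gave 1 call with all probe sets tested, 7 with array weights, and 1 to 7 with 1 array left out. Hypoxia with estradiol against hypoxia gave 0 calls throughout, and 0 to 1 with 1 array left out. Where the group given both estradiol and fulvestrant was set against estradiol alone or against hypoxia, every setting gave 0 calls among the 9 genes.

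Differences close to 0 changed sign between hypoxia with estradiol and fulvestrant and hypoxia with estradiol. With quantile normalization Ncr1 was -0.0094, and with array weights Nkg7 was 0.024. With 1 array left out Ncr1 ranged from -0.070 to 0.15, Gzma from -0.13 to 0.14, Nkg7 from -0.14 to 0.11 and Klrd1 from -0.14 to 0.064. Without estradiol replicates 2 and 3 Gzma was 0.16, Nkg7 0.27, Klrd1 0.065 and Klri2 0.043. Sftpc, a lung marker, was 0.013 in hypoxia against normoxia with quantile normalization. No adjusted p was under 0.05 in these cases, and the cause was not tested. Median centring, the filter on dim genes, the mean of probe sets and the intensity trend changed no direction.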
